A study of Rattus norvegicus with 16 samples.

Results

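Cytochromes P450 are haem enzymes that insert 1 atom of oxygen into their substrate, and the genes are grouped into families and subfamilies by the number and letter after Cyp. All 64 probe sets on the array with exactly 1 annotated symbol starting with Cyp and a digit were taken, except Cyp51, which makes cholesterol. They covered 57 genes in 33 subfamilies, out of 31042 probe sets on the array. Set aside were 2 probe sets of Cyp51 and 7 P450 probe sets with several symbols. No minimum was set on the signal, and all 64 were followed across all 16 arrays.

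The series profiled rat satellite cells from the levator ani, a pelvic muscle that depends on androgens for its size, after exposure to a nonsteroidal agonist of the androgen receptor (NARA). By their labels the groups were NARA at 10 nM for 4 h, vehicle (0.2% DMSO) for 4 h, NARA at 10 nM for 48 h and vehicle (0.2% DMSO) for 48 h, with 4 arrays each. All cells were at passage 5, and during treatment they were kept in charcoal-stripped serum, which is poor in steroids. The labels give neither strain, sex nor age of the rats, and although the titles speak of biological replicates, no culture or animal is named. The p-values therefore reflect spread among these samples, part or all of which may be technical. The authors set 3 arrays aside in the series' design text: replicates 1 and 4 of NARA at 4 h, and replicate 1 of vehicle at 48 h. That left 13 arrays, of which 2 were NARA 4 h, 4 vehicle 4 h, 4 NARA 48 h and 3 vehicle 48 h. Every value below is a MAS5 signal, the deposited array brightness on a linear scale, and every log2 value is a difference of log2(signal + 50).

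NARA 4 h replicates 1 and 4 stood apart from the other 14 arrays. They correlated, over probe sets that are not independent of each other, with the 14 at 0.645 to 0.673 and with each other at 0.894, while the 13 kept arrays correlated among themselves at 0.930 to 0.956. All 17 of 17 hepatocyte markers were higher in both of them, with a summed signal of 2283151 and 2829456 against 4479 to 6410 in the 14 arrays. Their Alb signal was 191486 and 288154, against 431 to 980 in the 14. By contrast 11 of 12 fibroblast markers were lower, with a summed signal of 28106 to 33718 against 496997 to 645027. Over all probe sets 14.8% were higher and 13% lower, by the rule given below. Of the 13 satellite cell and myoblast markers 11 had a probe set annotated here, Pax7 and Myf5 having none. In the 14 arrays Sdc4 lay at 5194 to 12258, Cxcr4 at 341 to 6185, Cdh15 at 799 to 1535, Ncam1 at 670 to 1753, Myog at 701 to 1929 and Des at 551 to 984. Met lay at 567 to 1224, Itga7 at 208 to 1011, Vcam1 at 114 to 584 and Chrna1 at 55.5 to 491. Myod1 lay at 12.1 to 270, below the minimum of 300 used for testing. In NARA 4 h replicates 1 and 4, 2 of the 11 were higher, Vcam1 and Sdc4 (31462 and 19450), and 1 lower, Ncam1. Cdh15 (1560 and 1923) and Myog (1440 and 1985) were not lower there.

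As background, most P450 enzymes sit in the membrane of the endoplasmic reticulum and take electrons from the reductase Por, while a few sit in mitochondria and take them from the ferredoxin Fdx1. Liver is the main site of the families that clear drugs and of those that turn cholesterol into bile acids. Other members make steroid hormones in adrenal and gonad, or act locally on fatty acids, vitamin D and retinoic acid. In rat liver several Cyp2a, Cyp2c and Cyp3a genes differ between the sexes under control of the daily pattern of growth hormone.

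Promoters are shown for 4 Cyp2c genes with known and opposite sex patterns in rat liver, since their signals in the 2 liver-like arrays, given below, lay far apart in size of difference. Cyp2c12 and Cyp2c7 predominate in females, and Cyp2c11 and Cyp2c13 in males. All 4 lie on chromosome 1, at chr1:248676985-248677284 on the minus strand, chr1:247966144-247966443 on the plus strand, chr1:246174966-246175265 on the plus strand and chr1:248787139-248787438 on the minus strand (RefSeq, GRCr8). Each line gives 250 bases before to 50 bases after the start of the gene, read 5′ to 3′ on the gene's own strand. Capitals mark 3 motifs searched on both strands: TATAAA (reverse complement TTTATA), the core of a TATA box; ATCAATA, with the reverse complement TATTGAT, bound by the liver factor HNF6; and AGAACA, with the reverse complement TGTTCT, which 1 receptor of an androgen receptor pair contacts.
Cyp2c12: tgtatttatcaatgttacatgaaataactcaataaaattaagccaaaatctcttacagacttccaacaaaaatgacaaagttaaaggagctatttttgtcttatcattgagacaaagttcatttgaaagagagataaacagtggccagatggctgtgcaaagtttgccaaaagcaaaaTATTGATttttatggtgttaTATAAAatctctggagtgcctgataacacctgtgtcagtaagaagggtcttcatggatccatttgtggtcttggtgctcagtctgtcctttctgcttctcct
Cyp2c7: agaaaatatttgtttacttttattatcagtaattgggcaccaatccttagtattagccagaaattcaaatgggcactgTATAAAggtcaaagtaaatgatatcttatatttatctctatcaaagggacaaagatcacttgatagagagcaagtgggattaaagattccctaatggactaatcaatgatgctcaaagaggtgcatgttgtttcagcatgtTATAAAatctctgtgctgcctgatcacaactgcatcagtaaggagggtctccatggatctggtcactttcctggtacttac
Cyp2c11: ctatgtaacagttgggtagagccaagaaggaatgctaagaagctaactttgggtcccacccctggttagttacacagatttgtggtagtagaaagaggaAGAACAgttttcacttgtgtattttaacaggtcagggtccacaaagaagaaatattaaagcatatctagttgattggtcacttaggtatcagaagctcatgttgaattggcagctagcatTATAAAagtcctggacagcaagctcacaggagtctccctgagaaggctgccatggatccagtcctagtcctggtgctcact
Cyp2c13: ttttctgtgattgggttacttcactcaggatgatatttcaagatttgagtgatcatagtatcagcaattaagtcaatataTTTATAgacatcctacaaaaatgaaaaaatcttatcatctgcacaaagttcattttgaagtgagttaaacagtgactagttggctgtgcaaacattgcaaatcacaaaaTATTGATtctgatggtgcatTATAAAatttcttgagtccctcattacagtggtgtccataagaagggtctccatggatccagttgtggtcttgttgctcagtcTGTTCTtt

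No 2 marked motifs overlapped in these windows. TATAAA stood 31 bases before the start in Cyp2c7 and Cyp2c11, 41 before in Cyp2c13 and 52 before in Cyp2c12. The letters ATCAATA occurred once in Cyp2c12 and once in Cyp2c13, on the opposite strand, and in neither Cyp2c7 nor Cyp2c11. Of these, Cyp2c12 is female-predominant and Cyp2c13 male-predominant. Among the 45 of 57 P450 genes with a promoter in the table, TATAAA was found in 13 (28.9%), against 14.2% of all 33469 promoters of the same length. ATCAATA was found in 2 of 45 (4.44%) against 2.25%, and AGAACA in 11 of 45 (24.4%) against 20.7%. A match is a description of letters, not a binding site.

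Promoters of 3 further members are shown because their signals were lower in the 2 liver-like arrays and averaged at least 1000 in the cultures. Cyp1b1 lies at chr6:21094315-21094614 on the plus strand, Cyp20a1 at chr9:69249623-69249922 on the plus strand and Cyp2j10 at chr5:116110760-116111059 on the minus strand (RefSeq, GRCr8). Capitals mark the same motifs.
Cyp1b1: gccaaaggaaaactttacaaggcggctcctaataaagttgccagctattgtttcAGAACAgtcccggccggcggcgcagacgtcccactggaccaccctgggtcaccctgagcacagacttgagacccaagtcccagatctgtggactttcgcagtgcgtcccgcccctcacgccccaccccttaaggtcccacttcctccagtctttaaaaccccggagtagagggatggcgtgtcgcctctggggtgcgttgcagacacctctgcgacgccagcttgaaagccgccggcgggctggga
Cyp20a1: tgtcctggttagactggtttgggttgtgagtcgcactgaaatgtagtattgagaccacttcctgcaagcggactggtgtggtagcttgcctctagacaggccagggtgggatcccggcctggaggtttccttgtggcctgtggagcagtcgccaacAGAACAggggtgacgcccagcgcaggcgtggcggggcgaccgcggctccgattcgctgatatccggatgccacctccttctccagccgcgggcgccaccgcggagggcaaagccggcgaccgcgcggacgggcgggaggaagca
Cyp2j10: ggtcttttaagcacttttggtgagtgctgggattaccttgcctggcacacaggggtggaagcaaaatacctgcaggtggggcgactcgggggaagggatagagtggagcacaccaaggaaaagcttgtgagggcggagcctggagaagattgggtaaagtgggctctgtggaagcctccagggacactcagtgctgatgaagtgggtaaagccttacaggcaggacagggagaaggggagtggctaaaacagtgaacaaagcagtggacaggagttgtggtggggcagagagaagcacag

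None of these 3 windows held TATAAA or ATCAATA, and AGAACA stood 196 bases before the start of Cyp1b1 and 94 before that of Cyp20a1. Their share of G and C was 60.7% in Cyp1b1, 64.7% in Cyp20a1 and 55.0% in Cyp2j10, while the 4 Cyp2c windows held 35.3% (Cyp2c12), 36.7% (Cyp2c7), 43.7% (Cyp2c11) and 34.7% (Cyp2c13). The median over all promoters was 51.7%.

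The first comparison set NARA 4 h replicates 1 and 4 against the other 14 arrays, subfamily by subfamily. Since the 2 arrays were set apart from the same signals, it is a description with no test. A probe set was called higher or lower where the means differed at least 2-fold and both arrays lay outside the range of the 14. Of the 64 P450 probe sets 39 were higher, against 14.8% of all 31042 probe sets, and 4 were lower, against 13%. The other 21 met neither condition. The median log2 difference was 2.03 over the P450 probe sets and 0.16 over all probe sets, and 23 P450 probe sets were at least 16-fold higher, against 1.73% of all. Higher probe sets occurred in 21 of the 33 subfamilies and belonged to 36 genes.

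**Figure D1:**
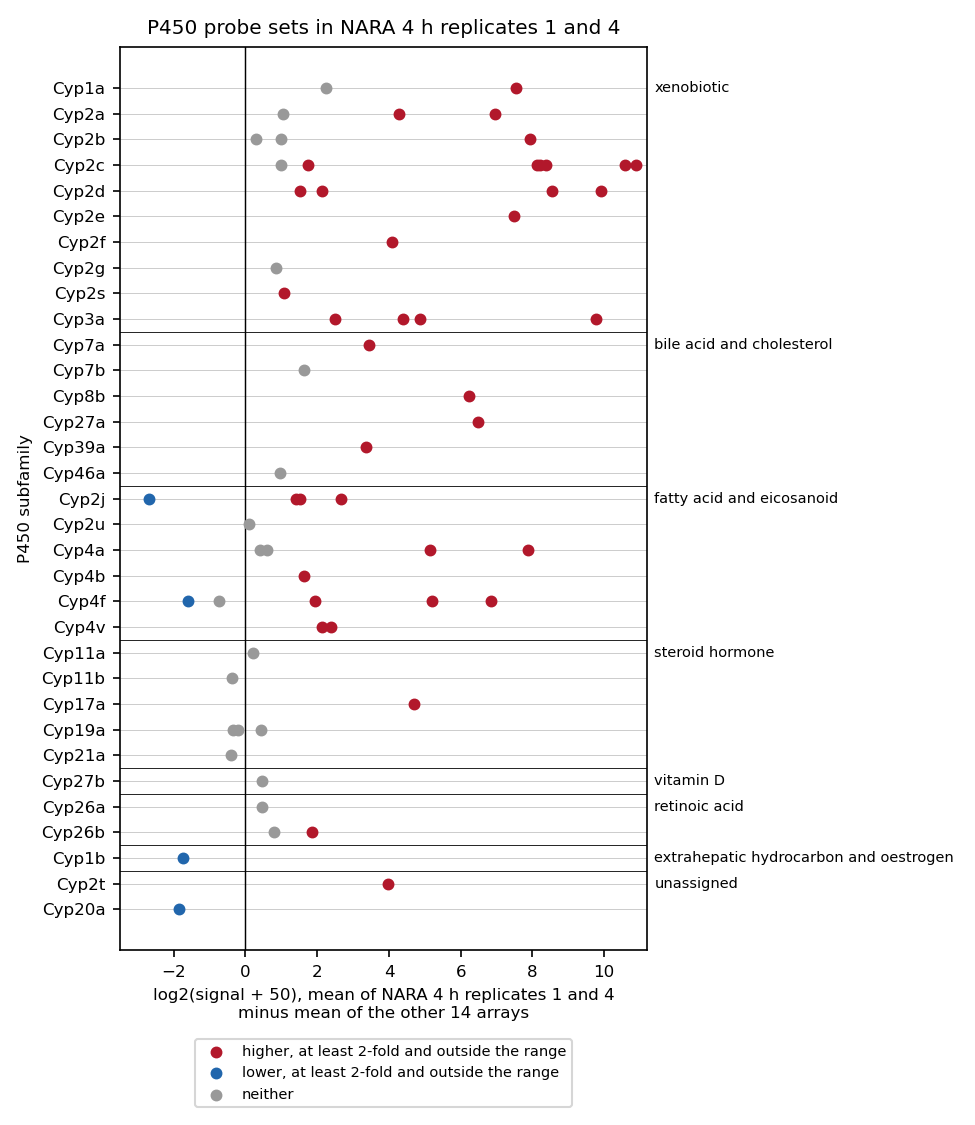
Difference in log2(signal + 50) between the mean of NARA 4 h replicates 1 and 4 and the mean of the other 14 arrays, 1 point per P450 probe set, by subfamily (vertical axis) and grouped by role. The point furthest to the right is in Cyp2c (10.89), the steroid hormone subfamilies lie near 0 apart from Cyp17a, and 4 probe sets (blue) are lower.

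The enzymes of drugs and other foreign compounds held 27 probe sets, of which 21 were higher and 0 lower, with a median log2 difference of 4.38. Cyp2c6v1, a major rat liver P450, had signals of 143250 and 203141 in the 2 arrays, against 18.1 (lowest), 39.5 (median) and 59.1 (highest) in the 14, a log2 difference of 10.89. Cyp2d2, which hydroxylates debrisoquine, had 136831 and 133615 against 41.6, 69.8 and 440 (9.91). Cyp3a23-3a1, a pregnane-inducible enzyme, had 89457 and 77635 against 16.1, 38.5 and 167 (9.78). In all 3 the 2 arrays lay far above the highest of the 14, and the dim signals of the 14 make the size of the fold depend on the offset: for Cyp2c6v1 it was 1901-fold with 50, 4344-fold with 1 and 710-fold with 200.

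Cyp2e1, the ethanol-oxidising P450, had signals of 152260 and 194314 in the 2 arrays, against 515, 918 and 1320 in the 14, a 180-fold difference. Cyp1a2, which oxidises caffeine and arylamines, had 72120 and 56017 against 80.4, 371 and 635 (188-fold). Cyp2b3 had 68414 and 57272 against 65.5, 224 and 322 (243-fold). These genes showed no overlap with the 14 arrays either. Log2 differences of other members were 8.54 for Cyp2d3, 8.22 for Cyp2c23, an arachidonic acid epoxygenase, and 8.13 for Cyp2c22, with Cyp3a9 at 4.87 and Cyp2f4 at 4.07.

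Within the same subfamilies other probe sets differed less from the 14 arrays. Cyp1a1, the classical target of the dioxin receptor Ahr, was 4.72-fold higher, with signals of 1062 and 266. The second of these fell inside the range of 27.4 to 476. Cyp2b12 had 15.9 and 95.03 against 11.7 to 58.2, and Cyp2b21 had 270 and 607 against 24.1 to 322. Cyp2a3 had 453 and 899 against 47.0 to 739, again with 1 of the 2 arrays inside the range. The smallest difference called was that of Cyp2s1, 2.12-fold higher. Cyp2g1 lay above the range in both arrays but under the 2-fold limit, at 1.80-fold. Cyp2b21 was nearer that limit, at 1.997-fold, with 1 of its 2 arrays inside the range. The 2 probe sets of Cyp2d4 were both higher, by 1.53 and 2.13.

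The rat genes known for sex-dependent levels in liver differed from the 14 arrays by 0.98 to 10.59 log2 units in the 2 arrays. Cyp2c12, a steroid sulfate hydroxylase predominant in females, had 161058 and 183854, against 14.3, 38.7 and 235 in the 14 arrays (log2 difference 10.59). Cyp2c7, also higher in females, had 159932 and 195882 against 267, 525 and 764 (8.38). Cyp2a1, a testosterone hydroxylase higher in females, had 42526 and 39899 against 129, 313 and 770 (6.94). For all 3 the 2 arrays were close to each other and far above the rest.

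Of the male-predominant genes, Cyp2c11, a testosterone hydroxylase and a major P450 of the adult male rat liver, had 963 and 1646 in the 2 arrays, against 115, 333 and 632 in the 14 (1.74). Cyp2c13 had 689 and 399 against 137, 247 and 409 (0.98), so that 1 of its 2 arrays lay inside the range. Cyp2a2 had 810 and 2882 against 9.65, 26.9 and 81.1 (4.29). The remaining pair was higher as well: Cyp3a2 had 255 and 599 against 13, 16.4 and 171 (2.495), and Cyp3a18 had 2241 and 3018 against 13.6, 59.6 and 266 (4.38). The plot of sex-dependent genes gives all 16 arrays. Levels are not compared between genes, since each probe set has its own brightness, and near-identical members of Cyp2a, Cyp2c, Cyp2d, Cyp3a and Cyp4a can share hybridising RNA. Of regulators tied to these patterns, Cux2, a repressor higher in female rat liver, had 1754 and 1694 against 34.7 to 507, and Bcl6, a repressor higher in males, had 645 and 408 against 1715 to 4296. Stat5b, on the same list of regulators, had 772 and 1133 against 44.6 to 525.5. The 14 arrays are cultured cells and not liver of known sex, so differences from them cannot tell the sexes apart. Whether the RNA came from animals of 1 sex was not tested.

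**Figure D2:**
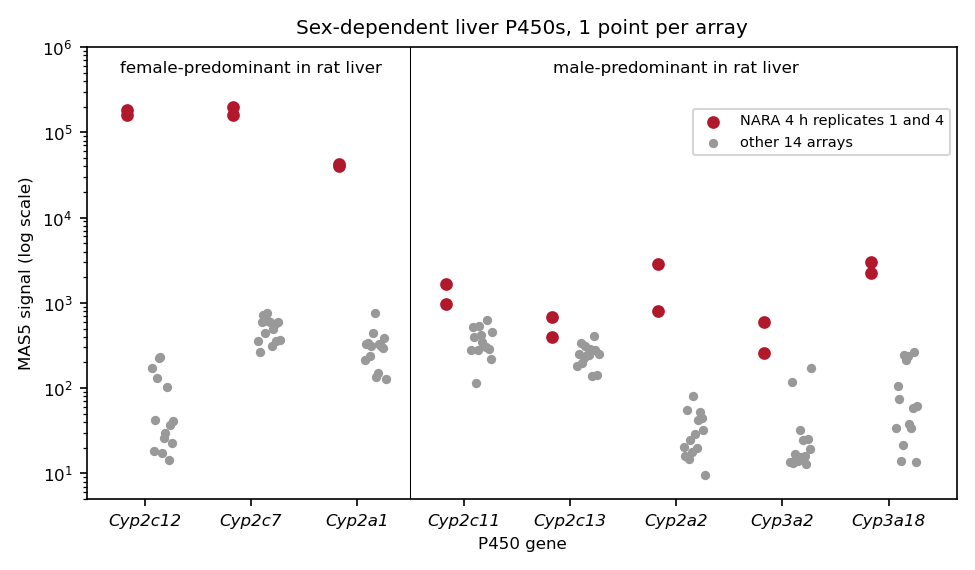
MAS5 signal (log scale) of the sex-dependent liver P450 genes in every array, with NARA 4 h replicates 1 and 4 in red, left of the other 14 arrays in grey. Within each gene both red points lie above all grey points, except for Cyp2c13, where 1 red point (399) lies under the highest grey point (409). Levels are not compared between genes.

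Among the 6 probe sets of bile acid and cholesterol enzymes 4 were higher and 0 lower. Cyp27a1, the mitochondrial sterol hydroxylase, had 42110 and 32959 in the 2 arrays, against 145, 393 and 696 in the 14 (90.0-fold). Cyp8b1, which sets the share of cholic acid, had 33231 and 34014 against 81.5, 415 and 713 (74.4-fold). Cyp7a1, the rate-limiting enzyme of bile acid synthesis, had 6030 and 4076 against 81.1, 436 and 931 (10.9-fold). Cyp39a1, an oxysterol hydroxylase, was 10.2-fold higher, at 5480 and 3179 against 244, 346 and 510. All 4 separated fully from the 14 arrays. Cyp7b1, which acts on oxysterols, had 188 and 411 against 8.39 to 223, and Cyp46a1, the cholesterol hydroxylase of neurons, had 213 in both arrays against 56.1 to 148, 1.93-fold higher and so under the limit.

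Fatty acid and eicosanoid enzymes were mixed, with 11 of 17 probe sets higher, 2 lower and a median log2 difference of 1.63. Cyp4a1, a fatty acid hydroxylase induced through Ppara, had 89938 and 61991 in the 2 arrays, against 74.7, 268 and 584 in the 14 (7.88). Higher too were Cyp4f1 (6.85), Cyp4f4 (5.20), Cyp4a3 (5.16), Cyp4f6 (1.93) and Cyp4b1 (1.63), along with both probe sets of Cyp4v3 (2.13 and 2.37), both of Cyp2j3 (2.66 and 1.40) and Cyp2j4 (1.53). Cyp2j10, of the arachidonic acid epoxygenase subfamily, had 70.8 and 544 against 1067, 1603 and 2598, 6.46-fold lower. Cyp4f5 had 93.1 and 113 against 122, 458 and 630, 3.04-fold lower. Members of 1 subfamily thus lay on both sides of 0 in Cyp2j and in Cyp4f, where Cyp4f17 was at -0.75 without meeting the conditions. Cyp2u1 (0.11) and both Cyp4a8 probe sets (0.41 and 0.60) met none either.

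Of the 7 probe sets of steroid hormone enzymes 1 was higher, against 14.8% of all probe sets. It belonged to Cyp17a1, which makes androgen precursors, with 1852 and 2552 in the 2 arrays, against 16.9, 28.7 and 131 in the 14 (4.69). Cyp11a1, which starts steroid synthesis from cholesterol, had 695 and 584 against 171 to 737, inside the range. The 3 probe sets of Cyp19a1, the aromatase, were at -0.34, -0.21 and 0.43, and so did not share a sign. Cyp11b1 (-0.38) and Cyp21a1 (-0.41), adrenal enzymes, met neither condition. Star, the cholesterol carrier of steroid-making cells, had 105 and 466 against 44.0 to 367, and of the 7 steroidogenic markers on the array 1 was higher, Fdx1, which the liver also uses.

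Cyp27b1, which activates vitamin D, had 741 and 1078 against 464, 589 and 986, with 1 of 2 arrays inside the range. Cyp26a1 and Cyp26b1 inactivate retinoic acid. Cyp26a1 was at 0.46, and of the 2 probe sets of Cyp26b1 1 was 3.59-fold higher and the other at 0.79. Cyp2t1, a little-studied member, had 6719 and 3867 against 93.5, 293 and 528 (3.99). Cyp1b1, which oxidises oestradiol and aromatic hydrocarbons outside the liver, had 907 and 1809 against 3672, 4337 and 5626, 3.33-fold lower. Cyp20a1, an orphan with no settled substrate, was 3.63-fold lower, at 1651 and 2559 against 6734, 7452 and 8690.

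Genes that serve or control P450 enzymes were read from lists of their own. Over all probe sets 14.8% were higher and 13% lower. Of 10 electron donor and haem genes on the array 6 were higher and 1 lower in the 2 arrays. Por, the electron donor of the microsomal enzymes, had 27749 and 6075 against 908 to 1539, Alas1, which starts haem synthesis, was at 2.65, and Hmox1, which degrades haem, was lower at -1.93. Of 25 regulators 17 were higher and 2 lower, Bcl6 and Ahrr. Hnf4a, a central liver transcription factor, had 64179 and 48437 against 41.5 to 469, and the nuclear receptors Nr1h4 (the bile acid receptor), Nr1i2 (PXR) and Nr1i3 (CAR) were at 5.52, 3.19 and 2.65. All 5 Ahr targets other than P450 genes were lower, with 384 and 83.4 against 37003 to 60625 for Aldh3a1 and 401 and 85.6 against 2850 to 5241 for Ahrr, which is on both lists. Of 13 retinoic acid genes 10 were higher and 2 lower, with Rbp4, the retinol carrier of plasma, at 10.39 and Crabp2 at -7.83.

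Markers of other cells were read in the same way, again beside 14.8% of all probe sets higher and 13% lower. Of 11 markers of other liver cells 9 were higher, Clec4f of Kupffer cells with 26756 and 22685 against 36.0 to 360. Of the kidney tubule list 0 of 7 were higher, of lung 1 of 6, of intestine 2 of 6 (Fabp2 and Apoa4), of adipocytes 2 of 7, and of satellite cells and myoblasts 2 of 11 with 1 lower. Summed kidney tubule signals were 1282 to 1491 in the 2 arrays and 1045 to 2105 in the 14. In bulk RNA a different share of cells of a type and a different amount of RNA per cell cannot be told apart, and the part of each cell type in the P450 values was not tested.

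In the cultures, 34 of the 64 P450 probe sets averaged a signal of 300 or more on the 13 kept arrays. That compares with 67.3% of all probe sets, and 300 lay below the median signal of every array, which was 539 to 613 in these 13. The 34 belonged to 31 genes. Of them 16 had a mean below 500 and 9 a mean of at least 1000, and 9 P450 probe sets lay above their array's median on all 13 arrays, against 38.3% of all probe sets. Just inside the minimum were Cyp4a1 (303) and Cyp2a3 (308), and just outside it Cyp2t1 (298) and Cyp2a1 (278). Detection calls were not used here, so a mean near 300 does not show that a gene was expressed.

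Several of the 9 probe sets at 1000 or more varied little between arrays. Cyp20a1 averaged 7634 ± 706 (SD, n = 13), a coefficient of variation of 9.25%. Cyp1b1 averaged 4492 ± 629 (SD, n = 13), and Cyp4v3, a fatty acid hydroxylase, 4521 ± 521 on its brighter probe set (SD, n = 13). Cyp2j4, another epoxygenase, averaged 2612 ± 203 (SD, n = 13), with the lowest coefficient of variation of the 34, 7.78%. The others of the 9 were Cyp2j10, Cyp4f6, Cyp2d4, Cyp2u1 and Cyp4a3. Not every probe set of these genes was as bright. The second of Cyp2d4 averaged 214 and that of Cyp4v3 359, and a probe set shared by Cyp4a3 and Cyp4a2 read 7.99 to 183 in the 14 arrays. Over the 34 the median coefficient of variation was 25.5%, and 15 were under 25%. Several liver genes with a mean just above 300 varied far more, such as Cyp1a2 (52.5%) and Cyp4a1 (49.7%).

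The second comparison asked whether NARA changed P450 genes after 48 h. With limma 0 of 34 P450 probe sets passed the adjusted threshold of 0.05, higher or lower, against 586 of 20904 probe sets tested (2.8%). At an unadjusted p under 0.05 from limma there were 3, which is 8.82%, against 16% of all, and the lowest adjusted p was 0.132. The log2 differences ran from -0.60 to 0.54 with a median of 0.06, and their median size was 0.19, the same as over all probe sets. The 95% interval lay within 2-fold in both directions for 25 of the 34, and for the other 9 it reached past 2-fold, which the number of arrays could not narrow.

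The probe set with the lowest adjusted p was Cyp2j10. Its signals were 2147, 2598, 2186 and 2409 in NARA at 48 h, against 1735, 1556 and 1782 in vehicle at 48 h, with no overlap. The difference was 0.45 log2 (SE 0.143, 95% interval 0.14 to 0.76), or 1.37-fold, with an adjusted p of 0.132 from limma. It passed in 1 alternative, when the minimum for testing was a mean of 1000 (adjusted p = 0.0466, limma).

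Cyp20a1 had 8690, 8690, 8473 and 7977 in NARA at 48 h, against 6734, 6847 and 7251 in vehicle at 48 h. All NARA arrays lay above all vehicle arrays, with a difference of 0.28 (SE 0.0924, 95% interval 0.08 to 0.49, limma adjusted p = 0.144). Cyp39a1 had 299, 244, 337 and 340 in NARA against 506, 357 and 510 in vehicle, a difference of -0.51 (SE 0.175, 95% interval -0.89 to -0.13, limma adjusted p = 0.163). Here the NARA arrays lay below. Cyp4a3 also did not overlap, with 1038, 1213, 1281 and 1045 in NARA against 516, 994 and 1016 in vehicle (0.47, limma adjusted p = 0.396). These 4 of 34 were the non-overlapping ones, against 14.7% of all probe sets. Of the 30 P450 probe sets under the minimum for testing, only Cyp2f4 and the brighter of Cyp26b1 did not overlap. NARA lay above in both, with 293 to 680 against 63.8 to 232 in vehicle for Cyp2f4. The 14.7% covers only the probe sets tested. The share without overlap among all those under the minimum was not counted, so these 2 cannot be set against it. The vehicle array of 48 h that the authors left out had 324 for Cyp2f4, inside the NARA range. With no minimum 0 of 64 P450 probe sets passed in limma, against 355 of all 31042.

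**Figure D3:**
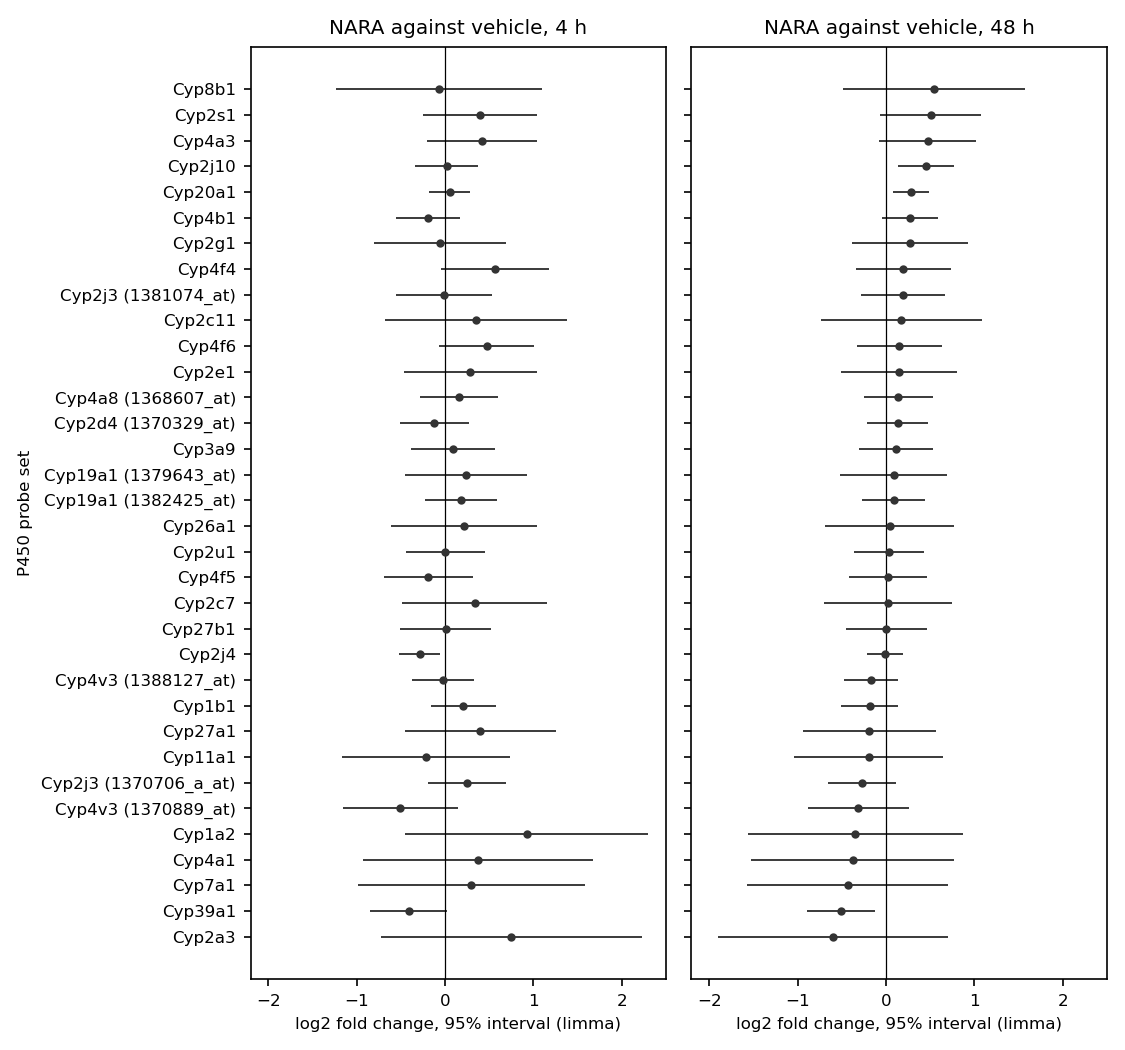
NARA effects (log2 difference in signal + 50, horizontal axis) of the 34 P450 probe sets averaging 300 or more, at 4 h on the left and at 48 h on the right, with bars for the 95% interval from limma. Most intervals cross 0, and the points lie between -0.51 and 0.92 at 4 h and between -0.60 and 0.54 at 48 h.

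By role, the xenobiotic probe sets ranged at 48 h from Cyp2a3 (-0.60, SE 0.592) to Cyp2s1 (0.51, SE 0.260). Between them lay Cyp1a2 (-0.35), Cyp2c7 (0.02), Cyp3a9 (0.11), Cyp2d4 (0.13), Cyp2e1 (0.15), Cyp2c11 (0.18) and Cyp2g1 (0.27). None of them passed. The bile acid enzymes were at -0.43 (Cyp7a1), -0.19 (Cyp27a1) and 0.54 (Cyp8b1), with standard errors of 0.517, 0.343 and 0.469 that are as large as the values or nearly so.

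Fatty acid enzymes other than those above lay between -0.38 (Cyp4a1) and 0.28 (Cyp4b1) at 48 h. In that range were Cyp4v3 (-0.31 and -0.17 on its 2 probe sets), Cyp2j3 (-0.27 and 0.19), Cyp2j4 (-0.02), Cyp4f5 (0.03), Cyp2u1 (0.03), Cyp4a8 (0.14), Cyp4f6 (0.15) and Cyp4f4 (0.20). For Cyp2j4 the 95% interval was -0.22 to 0.19. The 2 probe sets of Cyp2j3 differed in sign. Steroid hormone enzymes were at -0.19 (Cyp11a1) and 0.09 (both Cyp19a1 probe sets), Cyp27b1 at 0.01, Cyp26a1 at 0.04 and Cyp1b1 at -0.19 (95% interval -0.51 to 0.14).

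The third comparison made the same contrast at 4 h, with 2 NARA arrays against 4 vehicle arrays. Again 0 of 34 P450 probe sets passed in limma, higher or lower, as did 0 of all 20904 (0%). At an unadjusted p under 0.05 there was 1 (2.94%), against 4.75% of all. This was Cyp2j4, with 2056 and 2475 in NARA at 4 h, against 2744, 2788, 2696 and 2834 in vehicle at 4 h, a difference of -0.29 (SE 0.105, limma adjusted p = 0.932). Non-overlapping groups were seen in 4, with NARA above in Cyp4f4 (0.56) and Cyp4f6 (0.47) and below in Cyp2j4 and Cyp39a1, against 14.3% of all.

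Cyp39a1 had 278 and 296 in NARA at 4 h, against 451, 314, 352 and 502 in vehicle at 4 h, a difference of -0.41 (SE 0.198, 95% interval -0.85 to 0.02). It was thus lower in every kept NARA array than in every kept vehicle array of its time, at 4 h and at 48 h, without passing the test at either. Cyp20a1 was at 0.05 and Cyp2j10 at 0.02 at 4 h. Intervals were wide, within 2-fold for 18 of the 34, and the extremes were Cyp1a2 (0.92, SE 0.628) and 1 Cyp4v3 probe set (-0.51, SE 0.297).

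The remaining probe sets at 4 h were, for foreign compounds, Cyp2a3 (0.75), Cyp2s1 (0.39), Cyp2c11 (0.35), Cyp2c7 (0.34), Cyp2e1 (0.29), Cyp3a9 (0.09), Cyp2g1 (-0.06) and Cyp2d4 (-0.12). Bile acid enzymes were at 0.40 (Cyp27a1), 0.30 (Cyp7a1) and -0.07 (Cyp8b1). Among fatty acid enzymes were Cyp4a3 (0.42), Cyp4a1 (0.37), Cyp2j3 (0.25 and -0.02), Cyp4a8 (0.16), Cyp2u1 (0.00), Cyp4f5 (-0.19), Cyp4b1 (-0.19) and the brighter Cyp4v3 probe set (-0.02). Steroid, vitamin D, retinoic acid and oestrogen enzymes were at 0.24 and 0.18 (Cyp19a1), -0.22 (Cyp11a1), 0.01 (Cyp27b1), 0.22 (Cyp26a1) and 0.21 (Cyp1b1). None passed.

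The 2 liver-like arrays carry the NARA 4 h label, and putting them back, in a fit of all 16 arrays, moved the 4 h values. The difference between NARA and vehicle at 4 h was then 1.41 for Cyp39a1, -1.20 for Cyp2j10, -0.88 for Cyp20a1 and 0.59 for Cyp2j4. All 4 thus had the opposite sign from the fit of the 13 kept arrays. In that fit too 0 of 34 passed in limma.

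**Figure D4:**
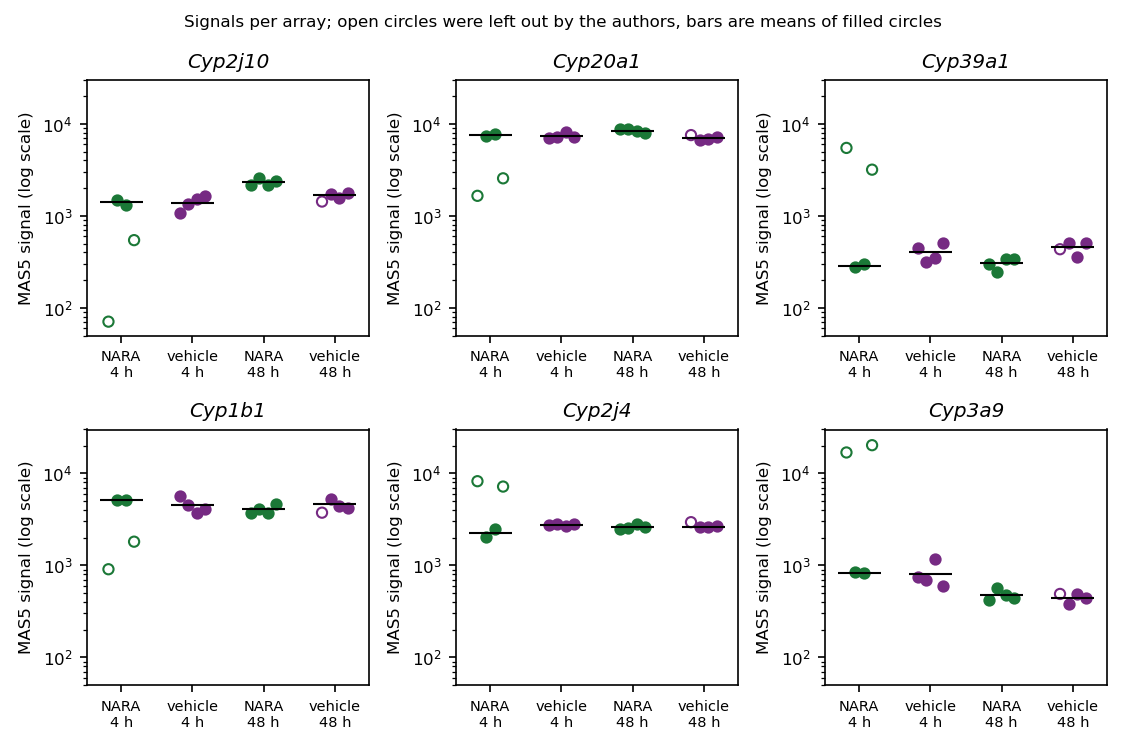
MAS5 signals per array (log scale) of 6 P450 genes by group, with NARA left of vehicle at 4 h and at 48 h, filled circles for the 13 kept arrays, open circles for the 3 left out and bars for the means of the kept arrays. Cyp2j10 and Cyp20a1 lie above vehicle at 48 h, Cyp39a1 lies below it at both times, Cyp3a9 lies lower at 48 h than at 4 h under both treatments, and the 2 open NARA 4 h circles lie apart in every panel.

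Whether the NARA effect differed between 48 h and 4 h was tested directly. With limma 0 of 34 P450 probe sets passed, against 0.124% of all, and 0 had an unadjusted p under 0.05, against 9% of all. For Cyp2j10 the effect was 0.43 larger at 48 h (SE 0.216, limma adjusted p = 0.603).

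Time itself was compared within each treatment. Between 48 h and 4 h in NARA 0 of 34 passed in limma, against 0.785% of all probe sets, and 4 had an unadjusted p under 0.05 (11.8%, against 11.6% of all). The arrays of the times did not overlap for 6 of the 34, against 21% of all. Between 48 h and 4 h in vehicle 0 of 34 passed, as did 0% of all, with 2 at an unadjusted p under 0.05 from limma (5.88%, against 7.35%), and 3 without overlap, against 8.9%. Cyp2j10 was 0.72 higher at 48 h than at 4 h in NARA (SE 0.162, limma adjusted p = 0.0835), with 2147 to 2598 at 48 h and 1476 and 1325 at 4 h. In vehicle the same difference was 0.28 (SE 0.143, limma adjusted p = 0.699).

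Cyp3a9 was lower at 48 h under both treatments. In NARA it had 422, 562, 479 and 442 at 48 h, against 839 and 822 at 4 h (-0.75, SE 0.216, limma adjusted p = 0.171). In vehicle it had 376, 491 and 447 at 48 h, against 747, 690, 1163 and 600 at 4 h (-0.77, SE 0.191, limma adjusted p = 0.450). No array of 48 h overlapped with one of 4 h in either case, and neither difference passed. In vehicle Cyp2s1 was the other with an unadjusted p under 0.05 (-0.71).

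Of the genes around the P450 enzymes, a few passed for NARA against vehicle at 48 h, where 2.8% of all probe sets tested did. Dhrs3, a retinaldehyde reductase, averaged 2097 ± 140 in NARA (SD, n = 4) and 621 ± 112 in vehicle (SD, n = 3), and rose by 1.69 log2 (SE 0.179, limma adjusted p = 0.000437). Crabp2, which carries retinoic acid in the cell, averaged 41618 ± 1482 in NARA and 23430 ± 723 in vehicle (0.83, limma adjusted p = 0.000465). They were the 2 of 10 tested retinoic acid genes that rose, and 0 fell, while Cyp26a1 lay at 0.04. Cyp26b1 was not tested, since both of its probe sets lay under the minimum signal. Its brighter probe set had 352 to 460 in NARA at 48 h against 47.4 to 261 in vehicle. The vehicle array of 48 h that the authors left out had 533 on it. The other Cyp26b1 probe set had 41.3 to 77.0 in NARA against 57.5 to 133 in vehicle. Among 17 regulators 1 rose, Bcl6, with 3780 ± 490 in NARA and 1915 ± 157 in vehicle (0.96, limma adjusted p = 0.0027), and 1 fell, Ahrr, with 3112 ± 297 in NARA and 4868 ± 366 in vehicle (-0.64, limma adjusted p = 0.00756). Ahrr, the repressor of the dioxin receptor, was also the 1 of 5 Ahr targets that fell, with Aldh3a1 at 0.25, Nqo1 at 0.24, Tiparp at 0.07 and Nfe2l2 at -0.19, none of which passed. Of 10 electron donor and haem genes 0 passed, and Por was at -0.15.

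Some markers of the cultured cells also passed for NARA against vehicle at 48 h. Of 9 tested satellite cell genes 2 fell, against 2.8% of all probe sets called: Cxcr4, a chemokine receptor, with 590.0 ± 218 in NARA (SD, n = 4) and 4923 ± 401 in vehicle (SD, n = 3), a difference of -3.02, and Sdc4, a heparan sulfate proteoglycan, at -0.72 (limma adjusted p = 0.0305). Summed satellite cell signals did not overlap, with 12192 to 14700 in NARA and 19087 to 22922 in vehicle. That sum is dominated by the same 2 genes, Sdc4 averaging 6362 in NARA and 10613 in vehicle, and does not show a fall of the whole list. The median difference over the 9 tested was -0.07, and Itga7 (0.95) and Ncam1 (0.63) were higher in NARA without passing. Of 12 fibroblast genes 2 fell, Lum (-1.06) and Pdgfra (-0.75, limma adjusted p = 0.0454), while the summed signals, 524122 to 645027 in NARA and 496997 to 609381 in vehicle, overlapped. Among 6 tested hepatocyte genes 0 passed, with summed signals of 4821 to 6410 in NARA and 4659 to 5410 in vehicle. In the other lists 0 of 5 steroidogenic, 0 of 3 intestine, 0 of 3 lung, 0 of 3 adipocyte, 0 of 2 other liver and 0 of 1 kidney tubule genes passed. At 4 h 0 genes of any list passed. The part of these cells in the P450 values was not tested.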

How the data were processed

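Total RNA (5 µg per sample) from 16 samples was hybridised to Affymetrix Rat Genome 230 2.0 arrays, per the labels. Deposited intensity values are linear MAS5 signals (the submitters' processing notes name MAS5), and the authors scaled each array to a trimmed mean of 1500, per the series' design text. The extraction is given as Trizol in the labels and as a column kit in the design text.

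Of 31099 deposited probe sets, 57 were Affymetrix controls and not used. In the platform annotation 20826 of the remaining 31042 had exactly 1 symbol, 436 several and 9780 none. All 64 P450 probe sets matched RefSeq's rat genes by gene identifier. Signals were transformed as log2(signal + 50), which understates the change of dim probe sets. The 20904 probe sets with a mean of at least 300 over the 13 kept arrays were fitted with limma 3.58.1 in R 4.3.3 (lmFit and eBayes, group means, 9 residual and 2.4 prior degrees of freedom). Two-sided p-values were adjusted by Benjamini-Hochberg over all of them, with a threshold of 0.05. The statistics were tested on simulated data. The number of arrays limits the precision.

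The members, gene lists, roles and tests were chosen with earlier results of these data known. Named were all P450 probe sets tested, the greatest difference of each subfamily, the 10 highest and 5 lowest differences, the sex-dependent genes and up to 4 members of each list; the other members and the promoters shown were added after their values were seen. Where a P450 gene had several probe sets, each is given. For each gene of the other lists only 1 probe set was read. It was the one with the highest mean signal over all arrays, the liver-like ones included. List counts and summed signals rest on that choice, and other probe sets of those genes were not examined. Alternatives were other sets of arrays, offsets of 1 and 200, other minimum signals, median and quantile scaling, a robust trended prior, the replicate number as a block, and each array left out in turn.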

Additional observations from a re-analysis of the deposited data

Results flagged for a closer look

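Within the sets of 4 arrays of a group, 5 of 136 P450 sets held an array far from the other 3, where chance flags about 1 in 20. That rate does not apply to the NARA 4 h sets, where 2 liver-like arrays stand beside 2 others. Such a split can hardly be flagged, and none of the 5 came from that group. The rate over all probe sets is not given here. Cyp11a1 had a signal of 170.6 in NARA 48 h replicate 1, against 686 to 737 in the other 3. The same array was also low in Cyp4a8, at 388.4 against 494 to 506. Cyp4a3 had 515.7 in vehicle 48 h replicate 2, against 948 to 1016. Cyp20a1 had 8155 in vehicle 4 h replicate 3, against 6963 to 7139, and Cyp2j4 had 2948 in vehicle 48 h replicate 1, an array the authors left out, against 2627 to 2645.

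The 7 P450 probe sets with several symbols entered no count of the report. Of them 4 were higher in NARA 4 h replicates 1 and 4 than in the other 14 arrays, against 14.8% of all probe sets. The probe set shared by Cyp2d5 and Cyp2d1 had 76987 and 65533, against 16.9 to 281 (log2 difference 9.40). That of Cyp4a3 and Cyp4a2 had 101481 and 59805, against 7.99 to 183 (9.74). The one of Cyp2a2 and Cyp2a1 had 35602 and 39669, against 38.3 to 444 (7.46), and the one of Cyp2b2 and Cyp2b1 had 3079 and 4237, against 631 to 918 (2.16). The 3 probe sets shared among Cyp11b genes met neither condition.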

How the results depend on the processing

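No P450 probe set changed sign with a passed test under any alternative. The count of P450 probe sets passing at 48 h, 0 in the report, was 1 (Cyp2j10) with a minimum mean signal of 1000, where fewer probe sets were tested. For 48 h against 4 h in NARA it was 1, again Cyp2j10, with that minimum, with a trended and robust prior, and without vehicle 4 h replicate 1, so that leaving out each array in turn gave 0 to 1; the cause was not tested for the last 2. With no signal minimum all 64 were tested and 0 passed in any of the 5 comparisons. Of all 31042 probe sets 355 then passed for NARA at 48 h and 0 at 4 h. For 48 h against 4 h it was 79 in NARA and 0 in vehicle, and for the difference of effects 11. At an unadjusted p under 0.05 (limma) there were 5 P450 probe sets at 48 h and 4 at 4 h. The share of all probe sets at that limit is not given here. With the replicate number as a block 0 passed in all 5. Same-numbered samples did not deviate together (r from -0.031 to 0.039 at 48 h, 0.005 and -0.036 at 4 h). With so few pairs this cannot settle whether the numbers mark shared cultures. With a 4-fold minimum 1 P450 probe set was lower in NARA 4 h replicates 1 and 4, in place of 4. At that minimum 31 were higher, in place of 39. The higher count was 40 with an offset of 1 and 38 with an offset of 200, while the lower count stayed at 4. Shares of all probe sets under these settings are not given here. With a minimum of 500 the count expressed was 18, in place of 34. Of 791 values of single probe sets at each time over 24 settings, 774 at 48 h and 756 at 4 h moved by less than 1 SE, and 44 and 43 changed sign without passing. The fit of only the groups compared was not run for the difference of effects, where it is the same fit. Signals near the background limit the dim members, and the 2 NARA arrays limit 4 h.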

Other observations

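Among the 14 arrays, vehicle 48 h replicate 1, which the authors left out, had the highest signal for 11 of the 64 P450 probe sets (17.2%), and for 14.01% of all probe sets.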
